A study of Arabidopsis thaliana with 4 samples.

Results

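Neighbouring genes of Arabidopsis thaliana that lie head to head, the left gene on the minus strand and the right gene on the plus strand, start transcription away from each other from a single stretch of DNA. Every pair of neighbouring protein-coding genes in this arrangement was taken when the annotated transcription start sites (TSSs) lay 1 to 1000 bp apart and no other annotated gene lay between them. Such pairs numbered 2340 on chromosomes 1 to 5 and held 4680 of 27444 protein-coding genes. A pair was counted as open when an ATAC-seq region called in at least 2 of 4 libraries had a summit between the TSSs. This was so for 1432 pairs, 61.2% of all (95% Wilson interval 59.2 to 63.2), which held 1582 of the 35093 regions that were called in at least 2 libraries. The other 908 pairs held no such region, and 803 pairs had no summit in any library. No region had summits in more than 1 head-to-head gap.

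ATAC-seq marks open chromatin by the insertion of sequencing adaptors with the transposase Tn5. The libraries came from flowers of 4-week-old Columbia-0 plants, 2 of wild type (WT) and 2 of mbd9-3, a T-DNA insertion mutant of MBD9, and both genotypes share this ecotype background. MBD9, named for its methyl-CpG-binding domain, is found with the chromatin remodelling complex SWR1. Each deposited list holds the peaks of 1 library, called without a control, and nothing in the labels says whether replicates came from separate plantings, so p-values measure only the spread between these libraries. The lists held 37609 to 45208 peaks. Peak lists contain no transcript levels, so genotype and tissue were not checked against markers here. Read totals were not used here. The lowest background behind a peak in these gaps, solved from fold enrichment and p-value, was 1.75 tags in WT replicate 1, 2.15 in WT replicate 2, 1.72 in mbd9-3 replicate 1 and 1.79 in mbd9-3 replicate 2, so WT replicate 2 was the deepest library on this measure.

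A divergent promoter serves both genes from 1 nucleosome-depleted stretch, or from a pair of such stretches when the genes lie farther apart. The first nucleosome on either side, the +1 nucleosome of each gene, is where SWR1 places the histone variant H2A.Z. Compact plant promoters of housekeeping genes often carry the site II element, bound by TCP transcription factors, whose core reads GGCCCA on one strand and TGGGCC on the other. TATA boxes, with the letters TATAAA, are more typical of genes with regulated expression, and the G-box CACGTG is bound by bZIP and bHLH factors.

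Sequences between the TSSs are given for pairs on which the results turn, from the TAIR10.1 genome, whose nuclear chromosomes are those of TAIR10, on the plus strand from 5′ to 3′. Capitals mark GGCCCA or TGGGCC and TATAAA or TTTATA. The first 3 are whole gaps of the shortest pairs with a region in all 4 libraries.
AT1G52220/PSAH2, chr1:19454766-19454797: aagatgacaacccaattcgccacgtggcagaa
AT1G54050/ASIL1, chr1:20180567-20180609: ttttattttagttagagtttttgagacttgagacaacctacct
AT5G19930/AT5G19940, chr5:6739574-6739623: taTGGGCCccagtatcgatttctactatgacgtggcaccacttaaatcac
The next 3 gaps show the site II core where it was most frequent among pairs up to 200 bp apart with a summit in all 4 libraries, with 4 matches each, and were chosen after their values were seen. In the gap of AT1G80550/AT1G80555, 2 of the matches overlap, as the same letters read on both strands.
AT1G66500/AT1G66510, chr1:24812662-24812792: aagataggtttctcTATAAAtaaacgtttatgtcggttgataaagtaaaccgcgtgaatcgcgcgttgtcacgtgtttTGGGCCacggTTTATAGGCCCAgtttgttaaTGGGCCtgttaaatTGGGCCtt
AT1G71490/AT1G71500, chr1:26935826-26935981: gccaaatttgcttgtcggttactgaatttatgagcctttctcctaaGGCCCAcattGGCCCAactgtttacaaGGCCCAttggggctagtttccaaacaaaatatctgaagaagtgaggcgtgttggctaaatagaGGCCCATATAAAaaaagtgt
AT1G80550/AT1G80555, chr1:30286799-30286955: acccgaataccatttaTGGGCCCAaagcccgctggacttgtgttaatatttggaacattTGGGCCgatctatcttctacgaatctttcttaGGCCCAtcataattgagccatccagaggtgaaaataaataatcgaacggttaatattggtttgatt
The following gaps are those of a strongly enriched pair without either motif, of RIN1 and CHR17, which had a region, and of PIE1, which had no summit in any library. For CHR17 only the part around the summit is shown, and the gap holds 1 match to the site II core outside that part.
AT2G19930/AT2G19940, chr2:8612649-8612925: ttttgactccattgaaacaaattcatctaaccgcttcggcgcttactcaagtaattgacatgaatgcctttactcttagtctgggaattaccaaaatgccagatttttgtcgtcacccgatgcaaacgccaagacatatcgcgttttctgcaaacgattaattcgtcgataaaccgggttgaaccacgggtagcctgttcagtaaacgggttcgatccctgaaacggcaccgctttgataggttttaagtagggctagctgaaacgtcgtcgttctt
RIN1/AT5G22340, chr5:7394281-7394442: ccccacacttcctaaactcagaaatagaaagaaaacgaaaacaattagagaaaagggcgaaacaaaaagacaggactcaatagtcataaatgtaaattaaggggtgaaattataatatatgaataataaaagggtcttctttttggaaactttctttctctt
CHR17/AT5G18630, chr5:6202396-6202535: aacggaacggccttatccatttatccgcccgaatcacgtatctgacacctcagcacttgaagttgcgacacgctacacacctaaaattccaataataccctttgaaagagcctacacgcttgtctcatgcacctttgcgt
SDRB/PIE1, chr3:4064860-4065041: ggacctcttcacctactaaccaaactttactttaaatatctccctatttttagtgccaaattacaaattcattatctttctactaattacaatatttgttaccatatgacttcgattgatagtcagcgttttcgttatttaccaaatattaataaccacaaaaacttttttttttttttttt
The last gaps are those of a pair with summits in both WT libraries only and of a pair with summits in both mbd9-3 libraries only.
ADF8/ULP1B, chr4:281073-281131: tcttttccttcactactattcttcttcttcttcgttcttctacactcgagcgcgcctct
GFA2/AT5G48040, chr5:19469940-19469991: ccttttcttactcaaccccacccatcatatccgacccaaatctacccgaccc

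The share of open pairs depended on the distance between the TSSs. It was 34.5% for the 351 pairs up to 100 bp apart and 73.8% (95% Wilson interval 69.4 to 77.8) for the 424 pairs 101 to 200 bp apart. From 201 bp onwards it lay between 57.1% and 70.9% in every bin of 100 bp. In steps of 25 bp the share was 8.33% up to 25 bp, reached 84.0% at 151 to 175 bp and was 73.0% at 176 to 200 bp. A short gap offers few bases for a summit to fall in. When summits up to 50 bp inside either gene were also counted, the share of the closest pairs, up to 25 bp apart, was 64.3%, and the share at 151 to 175 bp was 88.7%.

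Gaps of the same length in other gene arrangements were open less often. Tandem gaps, which hold the TSS of 1 gene, were open in 33.8% of 7237 cases, and convergent gaps, which hold no TSS, in 11.6% of 2508. At the length distribution of the head-to-head pairs these shares were 35.7% and 16.5%, so head-to-head pairs lay 25.5 percentage points above tandem gaps. In single libraries, with tandem gaps at the same lengths, 49.4% and 55.8% of head-to-head pairs had a summit in WT and 47.2% and 50.3% in mbd9-3, against 28.6% and 33.4% of tandem gaps in WT and 26.6% and 28.9% in mbd9-3. The difference was 21.3 ± 0.789 points (SD, n = 4), positive in 4 of 4 libraries (exact sign-flip permutation test, two-sided, p = 0.13, the smallest that 4 libraries allow).

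A head-to-head gap has a TSS at each end, so the tandem share was also counted as if a gap held a pair of independent TSSs, each open at the tandem rate. This alternative was added after the values had been seen. On that count tandem gaps reached 57.6% and the difference shrank to 3.60 points. It was not even across lengths. Averaged over libraries, head-to-head pairs lay 12.8 ± 2.33 points (SD, n = 4) above the 2-TSS count at 101 to 200 bp and 5.34 ± 0.871 points above it at 201 to 300 bp, in 4 of 4 libraries each. At 801 to 900 bp the mean difference was -8.93 ± 2.57 points (SD, n = 4), and 0 of 4 libraries were above. Over the 10 bins no difference passed the exact sign-flip permutation test, whose adjusted p was at best 0.208.

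**Figure D1:**
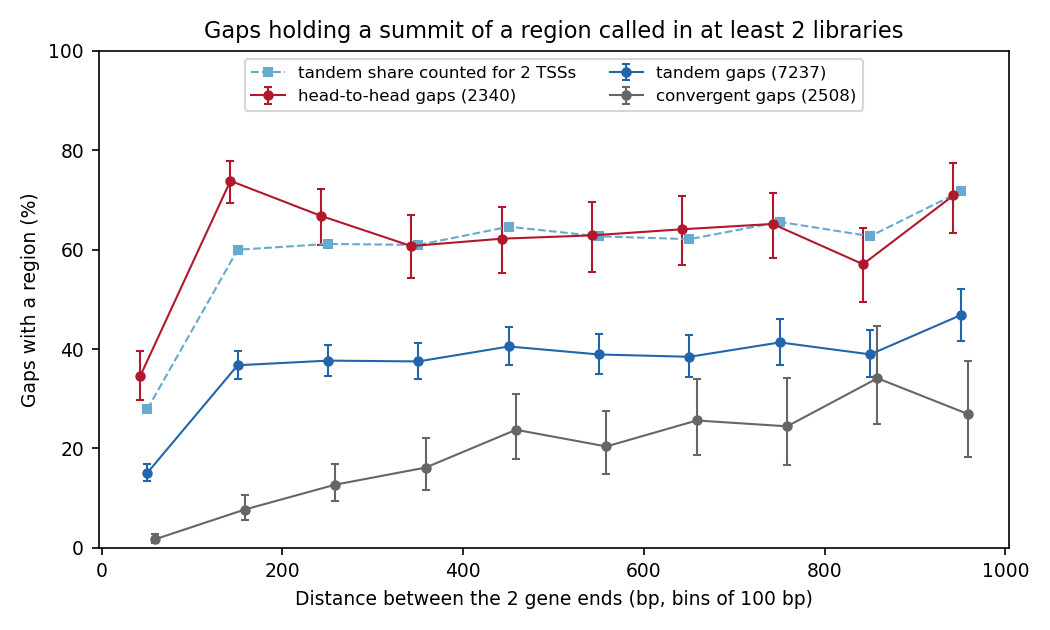
Share of gaps (%) that held a summit of a region called in at least 2 libraries against the distance between the gene ends in bins of 100 bp, for head-to-head, tandem and convergent gaps; bars are 95% Wilson intervals and the dashed line is the tandem share counted for 2 TSSs. The head-to-head share rose from 34.5% to 73.8% over the first 2 bins, was above the tandem share in every bin, and stood above the dashed line by the widest margin at 101 to 200 bp.

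Summits lay close to a TSS. The strongest summit of the 1432 open pairs was a median of 58.5 bp from the nearest TSS, and 73.2% lay within 100 bp of one. Both values include gaps up to 200 bp, where any summit in the gap must lie within 100 bp of a TSS. In the longer bins the share within 100 bp was 50.5% to 78.5%. Neither strand was favoured in number, as 740 summits lay nearer the minus-strand gene and 690 nearer the plus-strand gene. In pairs 101 to 200 bp apart, 59.1% of summits fell in the central 50% of the gap (95% Wilson interval 53.6 to 64.4), whereas in pairs 901 to 1000 bp apart 23.2% did (16.4 to 31.8). In single libraries the share at 101 to 200 bp was 52.0% to 54.3%, close to the 50% of bases that this stretch holds, so the departure from an even spread was seen in long gaps, where summits lay towards the ends. In the 848 pairs with a summit in all 4 libraries, the summits of the libraries spread over a median of 36 bp.

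Regions of close pairs, as merged over libraries, spanned both genes' start sites. One merged region covered both TSSs in 465 pairs. The share was 92.6% of open pairs up to 100 bp apart, 78.3% at 101 to 200 bp and 45.8% at 201 to 300 bp. The median merged region was 273 bp wide, so in a short gap it can cover both TSSs by its width alone. Peaks of single libraries were not counted this way. Separate regions were found at longer distances. No open pair under 200 bp held more than 1 region, 145 pairs held at least 2, and at 901 to 1000 bp these were 35.7% of open pairs. In the 145 pairs the first summit was a median of 73 bp from the minus-strand TSS, the last was 78 bp from the plus-strand TSS, and the 2 lay 470 bp apart.

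**Figure D2:**
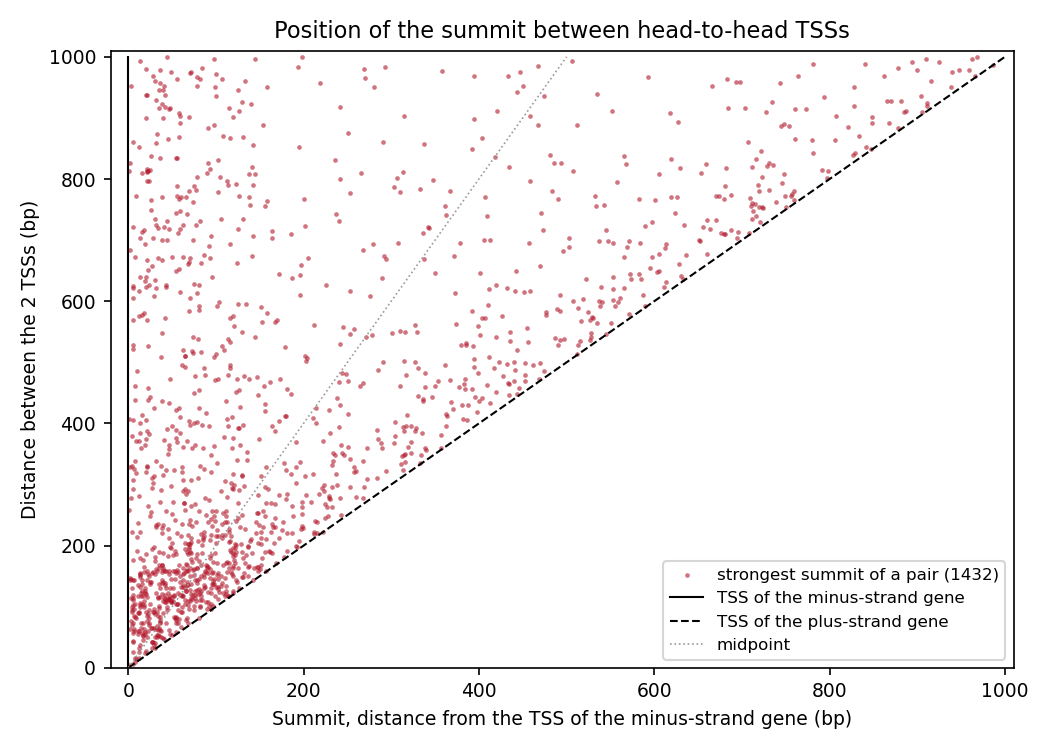
Position of the strongest summit of each of the 1432 open pairs, as distance from the TSS of the minus-strand gene (bp), against the distance between the TSSs (bp); the solid and dashed lines are the TSSs and the dotted line is the midpoint. Points fill the gap at short distances and lie along both TSSs at long ones. Of all points 73.2% lie within 100 bp of a TSS, which gaps up to 200 bp cannot fail to do.

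Open and closed pairs also differed in annotation. Pairs in which both genes have an annotated 5′ UTR were open in 65.2% of 1848 cases, those with 1 such gene in 51.9% of 414, and those with none in 16.7% of 78 (95% Wilson interval 10.01 to 26.46). Where a gene lacks a 5′ UTR in the annotation, its start codon stands in for the TSS, so the distances of those pairs are less certain. Of 193 open pairs at least 200 bp apart with 1 such gene, 159 had their strongest summit nearer the gene with the UTR (82.4%, 76.4 to 87.1). Pairs of 2 genes annotated as uncharacterized proteins were open in 5 of 31 cases, against 63.3% of the 1924 pairs without such a gene; this list was added after the values had been seen.

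The site II core was the letter sequence that differed most, in percentage points, between open and closed pairs among the 6 motifs searched on both strands, which were the TATA box TATAAA, the site II core GGCCCA, the telobox AAACCCTA, the GA repeat GAGAGA, the G-box CACGTG and the CCAAT box. GGCCCA lay between the TSSs in 48.2% of open pairs (690 of 1432) and in 9.80% of closed pairs (89 of 908). At equal distances between TSSs the shares were 46.4% and 10.3%. In tandem gaps the shares were 32.5% with a region and 5.41% without, and at equal distances 31.4% and 6.04%. The difference held at each length, as the share in open pairs was 24.8% up to 100 bp and between 43.0% and 52.6% in longer bins, and that in closed pairs stayed between 6.52% and 13.2%. A match is a run of letters and was not tested as a binding site.

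Open pairs were more frequent the more copies the gap held. Of pairs without GGCCCA 47.5% were open, of those with 1 copy 84.4%, and of those with 2 or more 93.4% (95% Wilson interval 90.4 to 95.5). Pairs with 0, 1 and at least 2 copies had similar median distances between TSSs, of 335, 408.5 and 389 bp. The nearest copy lay a median of 31 bp from the summit, and in 68.3% of open pairs with a copy it lay within 50 bp. The median gap of these open pairs was 393.5 bp. What distance gap length and copy number alone would give was not computed, here or for other motifs. Of the 59 other orders of the same 6 letters, counted after the values had been seen, the median share in open pairs was 3.14% and the highest was 33.5%, for AGGCCC, which shares 5 letters with the site II core.

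**Figure D3:**
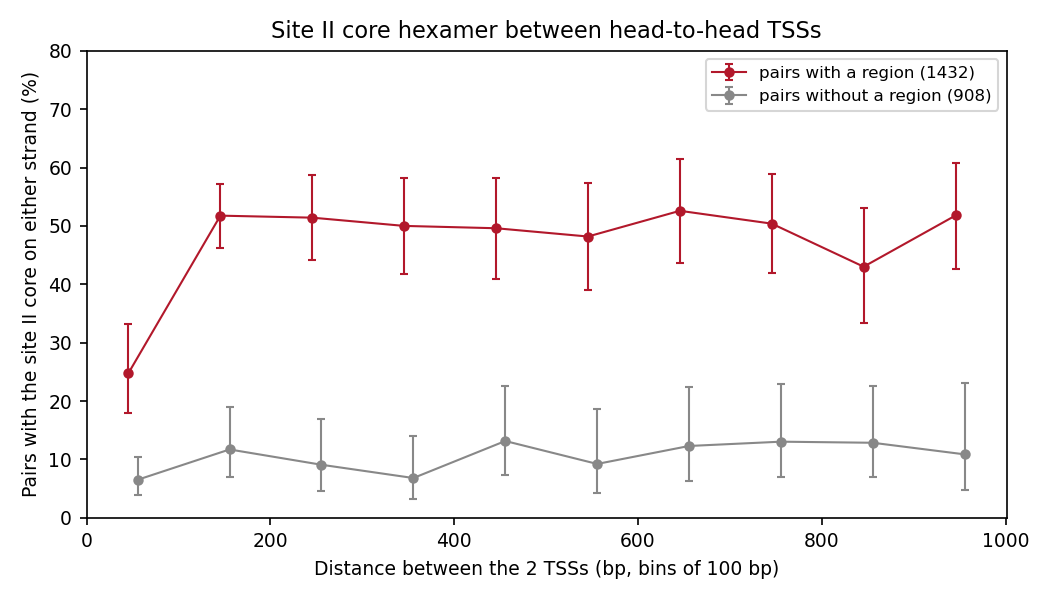
Share of head-to-head pairs (%) with the site II core hexamer on either strand between the TSSs, against the distance between the TSSs in bins of 100 bp, for 1432 pairs with and 908 pairs without a region; bars are 95% Wilson intervals. The share was 24.8% against 6.52% up to 100 bp and 51.8% against 11.7% at 101 to 200 bp, and the intervals did not overlap in any bin.

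In percentage points the other motifs differed less or in the opposite direction, whereas as a ratio the G-box differed about as much as the site II core. The G-box CACGTG lay in 17.2% of open and 3.41% of closed pairs. Its nearest copy was a median of 28.8 bp from the summit, in gaps with a median length of 515 bp. CCAAT, which overlaps the site II core where the letters read GGCCCAAT, as they did in 198 of the 690 open pairs with the core, was found in 67.5% and 49.6%. TATAAA was about as frequent in open and closed pairs, at 55.0% and 55.1%, and at equal distances its share was 53.2% in open and 59.4% in closed pairs. On the sense strand within 100 bp of a TSS it stood at 14.6% of the TSSs of open pairs and 16.2% of those of closed pairs. The nearest TATAAA was 114 bp from the summit at the median, in gaps with a median length of 589 bp. AAACCCTA was found in 7.40% and 6.498%, and GAGAGA in 27.2% and 21.9%. The GC content of the gap, at equal distances, was 33.9% in open and 30.02% in closed pairs.

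In windows of 101 bp around the summit, all of one length, GGCCCA was present in 30.9% of the 1582 regions, in 23.7% of the 2579 tandem-gap regions and in 13.2% of all 35093 regions called in at least 2 libraries. CACGTG was present in 12.5%, 9.65% and 9.53% of these windows, and TATAAA in 12.4%, 12.7% and 9.05%.

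Regions between head-to-head TSSs ranked higher than tandem-gap regions in each library. Strength is given as the rank percentile, the share of a library's own peaks with a lower fold enrichment over the background of that library, since fold enrichments of separately called lists have no common scale. The median over open pairs was 76.8 and 78.0 in WT and 77.4 and 73.3 in mbd9-3, and for tandem gaps it was 68.0 and 66.4 in WT and 69.8 and 62.4 in mbd9-3. In both sets the strongest peak of a gap was taken, from regions called in at least 2 libraries. The ranks are against the whole list, so this choice by itself favours high values. Head-to-head summits lay higher in all 4 libraries, by 9.74 ± 1.86 percentile points (SD, n = 4; exact sign-flip permutation test, two-sided, p = 0.13). Peaks were also wider, with medians of 203 and 244.5 bp in WT and 188 and 215.5 bp in mbd9-3, which was 37.1 ± 8.01 bp (SD, n = 4) above tandem gaps (exact sign-flip permutation test, p = 0.13). Unlike the shares, ranks and widths of tandem gaps were not weighted to the head-to-head lengths. A head-to-head gap also has a TSS at each end from which its strongest peak can come. The part of either in these differences was not tested. These peaks rested on few reads, as the median pileup at the summit was 16, 22, 15 and 16 tags.

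**Figure D4:**
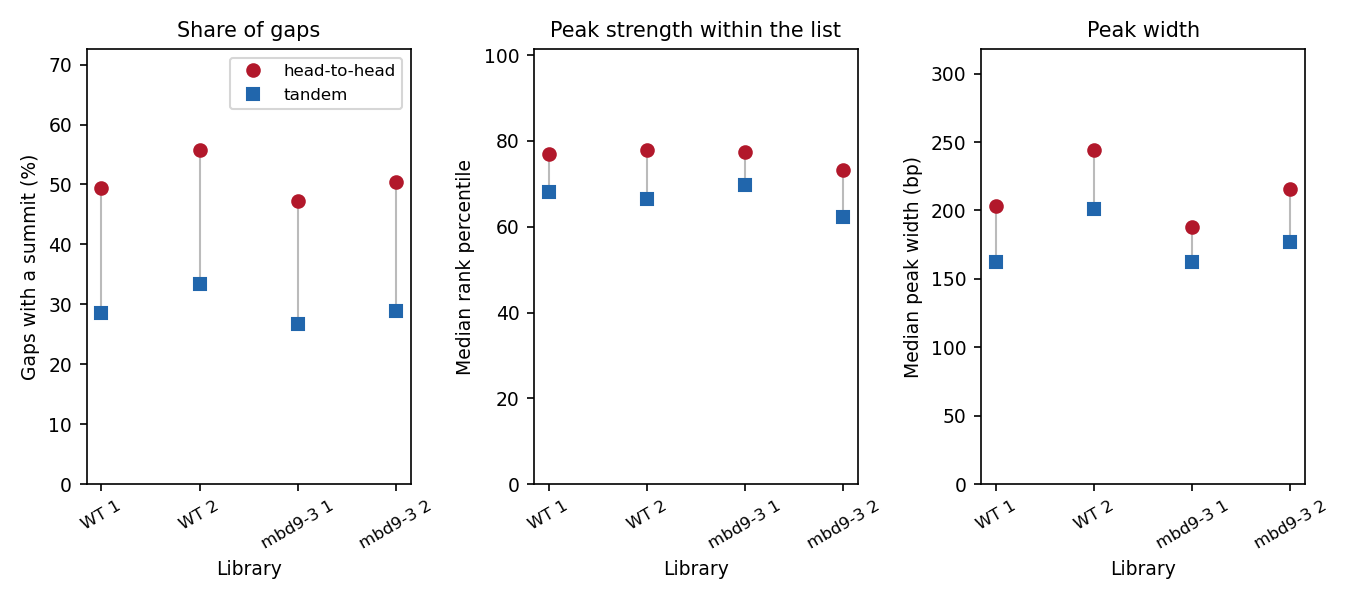
Share of gaps with a summit (%), median rank percentile of fold enrichment within the library's own list, and median peak width (bp) in each of the 4 libraries, for head-to-head pairs and for tandem gaps. Head-to-head values lay above tandem values in every library and panel, by 20.6 to 22.4 percentage points in the left panel. Tandem shares are weighted to the head-to-head gap lengths, and tandem ranks and widths are not.

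Most of these regions were called in every library. Of the 1582 regions, 1264 (79.9%) were called in all 4 libraries, against 70.1% of tandem-gap regions and 55.7% of all regions called in at least 2 libraries. The median width after merging was 273 bp, against 232 bp and 199 bp.

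The genotypes were then compared. WT libraries had a summit in 52.6% ± 4.50 of pairs and mbd9-3 libraries in 48.8% ± 2.21 (SD, n = 2 each), a difference of -3.85 points (exact permutation test, two-sided, p = 0.667; 2 against 2 libraries cannot go below 0.33). The libraries numbered 2 exceeded those numbered 1 by 4.74 points, so the difference between genotypes was smaller than that between replicates. The highest share was that of WT replicate 2, the deepest library, and the part of depth in the difference was not tested. Without WT replicate 2 the difference was -0.662 points, and with any other library left out it was -7.03 to -2.29 points. Median rank percentile differed by -2.05 points and peak width by -22.0 bp between genotypes (exact permutation test, p = 0.667 for each). Both rested on single libraries: without mbd9-3 replicate 2 the rank difference was 0.00175 points, and without WT replicate 2 the width difference was -1.25 bp, with ranges of -4.09 to 0.00175 points and -42.8 to -1.25 bp over all ways of leaving out 1 library, computed after the values had been seen. Summits lay 59.0 bp from the nearest TSS in WT and 61.0 bp in mbd9-3 at the median (exact permutation test, p = 1).

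Few regions were called in 1 genotype only. Both WT libraries and neither mbd9-3 library called 32 of the 1582 regions (2.02%), against 4.93% of all regions called in at least 2 libraries, and both mbd9-3 libraries and neither WT library called 5 (0.316%), against 2.81%. Counted by summits between the TSSs, 1276 pairs had a summit in at least 2 libraries. Of these, 43 (3.37%) had a summit in both WT libraries only and 13 (1.02%) in both mbd9-3 libraries only. Among 2158 tandem gaps with a summit in at least 2 libraries, these shares were 5.38% and 1.85%. In 23 of the 43 and 11 of the 13 the region itself was called in the other genotype too, with its summits outside the gap. These counts depended strongly on single libraries: with any 1 library left out they were 97 to 157 and 44 to 78, since 1 library then stands for a genotype.

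Relative strength was tested with limma, on ranks within each list turned into normal scores, over all 19546 regions called in 4 libraries. It called 0 regions at an adjusted p under 0.05 (0% of those tested), and 0 of 1264 between head-to-head TSSs, where the smallest adjusted p was 0.961. At an unadjusted p under 0.05 it listed 5.02% of all regions tested and 48 of the 1264 (3.797%), of which 42 were lower and 6 higher in mbd9-3. The estimate was below 0 for 67.8% of the 1264 and for 57.0% of all regions tested, with medians of -0.13 and -0.06 normal-score units. This split rested on WT replicate 2: without it 15 regions were lower and 13 higher at an unadjusted p under 0.05, the estimate was below 0 for 59.3% of the 1264 and 57.4% of all regions, and the medians were -0.08 and -0.08.

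Fold enrichments of named pairs are given library by library, replicate 1 before replicate 2, and whether genotypes overlapped was read from rank percentiles. The 5 strongest pairs with a summit in all 4 libraries had mean rank percentiles of 99.3 or more. The first, AT2G07825/AT2G07827 on chromosome 2 (TSSs at 3474664 and 3474996), encodes a pair of uncharacterized proteins and had fold enrichments of 20.1 and 19.9 in WT and 17.8 and 21.4 in mbd9-3. All bases of this gap lie in 31-letter runs that also occur in the mitochondrial genome, so nuclear accessibility and reads from mitochondria cannot be told apart there. It was the only open gap of 1432 with more than 50% of its bases in such runs, and 6 held any.

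TRM9/AT1G31620 (chromosome 1, region 11316438 to 11316849) pairs a gene annotated as an RNA-binding family protein with an uncharacterized one. Its fold enrichment was 19.0 and 17.6 in WT and 18.4 and 17.2 in mbd9-3, and its summit lay 3 to 18 bp from the TSS of TRM9 in all 4 libraries. COL3, a CONSTANS-like B-box transcription factor, lay head to head with the uncharacterized AT2G24780 at 654 bp (region 10566588 to 10567014 on chromosome 2). Fold enrichment was 17.2 and 16.2 in WT and 16.8 and 14.8 in mbd9-3, with the summit 53 to 64 bp from the TSS of COL3. GRF11, a 14-3-3 protein, and AT1G34770 were 657 bp apart, with fold enrichments of 15.8 and 18.6 in WT and 14.4 and 15.4 in mbd9-3 and a summit 25 to 29 bp from GRF11. The rank percentiles of this pair, 99.3 and 99.8 in WT and 99.1 and 99.4 in mbd9-3, overlapped. In these 3 long gaps the opening lay at 1 gene, whereas AT2G19930, of the RNA-dependent RNA polymerase family, and AT2G19940, an enzyme of arginine synthesis, were 278 bp apart and shared a region (8612627 to 8612999 on chromosome 2) that covered both TSSs. Its fold enrichment was 16.01 and 17.1 in WT and 14.9 and 14.5 in mbd9-3, and its rank percentiles were 99.3 and 99.6 in WT and 99.2 and 99.3 in mbd9-3.

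The closest pairs with a summit in all 4 libraries had TSSs 33 to 51 bp apart, and 7 open pairs with summits in fewer libraries were up to 25 bp apart. AT1G52220, a thylakoid curvature protein, and PSAH2, subunit H of photosystem I, were 33 bp apart and shared a region (19454694 to 19454994 on chromosome 1) with fold enrichments of 11.5 and 9.68 in WT and 8.46 and 10.2 in mbd9-3. The gap printed above holds 1 G-box and no site II core. AT1G54050, a small heat shock protein of the HSP20 type, and ASIL1, a repressor of seed maturation genes, were 44 bp apart. Fold enrichment there was lower, 3.37 and 5.27 in WT and 4.61 and 4.79 in mbd9-3, and the genotypes overlapped. AT5G19930 and AT5G19940, the latter a plastid-lipid-associated protein, were 51 bp apart with 1 site II core and had fold enrichments of 8.94 and 9.34 in WT and 9.28 and 7.67 in mbd9-3.

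The pairs with 4 matches to the site II core included AT1G66500/AT1G66510, in which a pre-mRNA cleavage factor and a protein of the AAR2 splicing family face away from each other over 132 bp. Fold enrichment was 9.56 and 9.06 in WT and 8.30 and 7.99 in mbd9-3. Its rank percentiles, 94.4 and 91.7 in WT and 92.6 and 90.5 in mbd9-3, overlapped. AT1G71490/AT1G71500 had 5.68 and 9.58 in WT and 9.13 and 5.84 in mbd9-3, and AT1G80550/AT1G80555, with a pentatricopeptide repeat gene on the left, had 4.15 and 6.08 in WT and 6.45 and 5.68 in mbd9-3. Replicates of 1 genotype differed as much as the genotypes did in both.

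The 3 longest pairs without a summit in any library were PDLP1/SUVR2 at 996 bp, AT1G17310/AT1G17330 at 993 bp and AT1G50680/AT1G50690 at 992 bp. PDLP1 is a plasmodesmata-located protein, SUVR2 acts in RNA-directed DNA methylation, AT1G17310 encodes a MADS-box factor and AT1G50680 an AP2/B3 factor. A peak list holds only what passed its threshold, so weaker accessibility at this depth would be missed. Peaks with a summit outside these gaps could still reach into them and were not looked for here.

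Pairs with summits in 1 genotype only included ADF8, an actin depolymerizing factor, with ULP1B, a protease of the SUMO-specific type, 60 bp apart (region 280912 to 281164 on chromosome 4). It had fold enrichments of 6.53 and 7.18 in WT and no summit in the gap in mbd9-3. AT5G05370, a subunit of the mitochondrial cytochrome b-c1 complex, and PRA1.B3, of a family acting in vesicle transport, were 74 bp apart and had 5.995 and 7.97 in WT. In mbd9-3 only, the gap of 53 bp between GFA2, a mitochondrial DnaJ chaperone needed in the female gametophyte, and AT5G48040 had 11.8 and 8.19, and that of 861 bp between AT3G47120 and AT3G47130 had 4.77 and 6.41. In 3 of these 4 pairs the gap was shorter than 75 bp.

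Of 24 genes that the study addressed, 5 belonged to head-to-head pairs, and 3 of these pairs were open. HTA8, which encodes an H2A.Z histone, lay 887 bp from AT2G38820 and had 2 regions between the TSSs, a narrow one (16220904 to 16220997 on chromosome 2) next to HTA8 and a wide one (16221451 to 16221880) towards AT2G38820. The stronger summit had fold enrichments of 11.2 and 14.5 in WT and 13.0 and 13.2 in mbd9-3. CHR17, an ISWI chromatin remodelling ATPase, shared a 368-bp gap with AT5G18630 and had 9.85 and 14.5 in WT and 9.55 and 9.28 in mbd9-3. Its rank percentiles, 94.98 and 98.9 in WT and 95.1 and 94.3 in mbd9-3, overlapped. RIN1, a RuvB-like ATPase found in SWR1, was 163 bp from AT5G22340 and had 4.00 and 7.46 in WT and 3.31 and 7.09 in mbd9-3, so the replicates differed more than the genotypes. PIE1, the catalytic ATPase of SWR1, was 183 bp from SDRB and had no summit in the gap in any library. The same held for the 221-bp gap between AT2G17930, a TRA1 homologue, and AT2G17940.

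**Figure D5:**
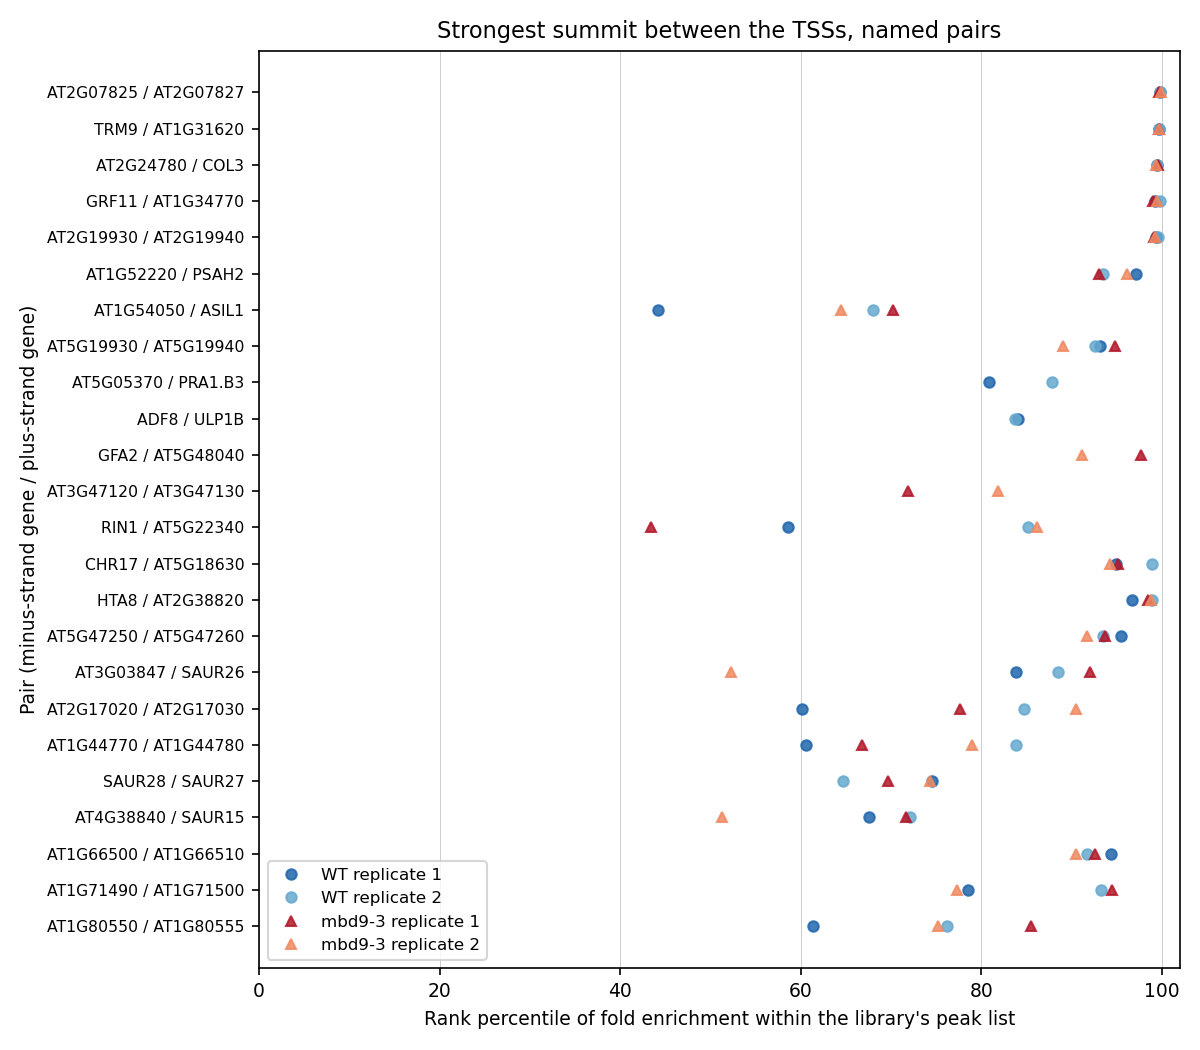
Rank percentile of fold enrichment within each library's own peak list for the strongest summit between the TSSs of each named pair with a summit; circles are WT and triangles mbd9-3, and a missing symbol means no summit in the gap. The first 5 pairs lie above 99 in every library, and RIN1/AT5G22340 spreads from 43.4 to 86.2 without order by genotype.

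Gene families differed in how often they lay head to head, and less clearly in how often such a pair was open. Lists were made from the annotated product names and are described by counts, beside 17.1% of all protein-coding genes in head-to-head pairs and 61.2% of pairs open. Only the lists of ribosomal, disease resistance and hypothetical proteins had 95% Wilson intervals of the open share that left out 61.2%. These shares were not adjusted for the distance between TSSs. Of 344 ribosomal protein genes, 28.8% were in pairs, a median of 151 bp apart, and 75 of 99 pairs were open (75.8%, 95% Wilson interval 66.5 to 83.1). This was close to the 73.8% of all pairs 101 to 200 bp apart. Histone genes were in pairs most often (34.6% of 52), with 13 of 18 open and a median rank percentile of 88.0 against 70.1 for all open pairs, and the site II core lay in 76.9% of their open gaps. Chaperones were open in 39 of 54 pairs and kinases in 64 of 96.

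Pentatricopeptide repeat genes, which act in organelle RNA processing, were in pairs in 27.5% of cases and open in 39 of 71. Translation factors were open in 21 of 33 pairs, aminoacyl-tRNA ligases in 11 of 20 and proteasome subunits in 4 of 7. Transcription factor genes were seldom head to head (7.42% of 768), as were cytochrome P450 genes (4.44% of 248), and 31 of 57 and 5 of 11 such pairs were open. F-box genes were open in 64 of 111 pairs, disease resistance genes in 9 of 26, defensin-like genes in 7 of 16 and hypothetical proteins in 12 of 28.

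SAUR genes, a family of small proteins induced by auxin in elongating tissue, were open in 8 of 9 pairs, and 0% of these gaps held the site II core. Both genes were SAUR genes in 3 pairs with a summit in all 4 libraries. SAUR28/SAUR27 had fold enrichments of 5.21 and 5.03 in WT and 4.56 and 5.58 in mbd9-3. AT3G03847/SAUR26 had 6.49 and 8.15 in WT and 8.10 and 4.13 in mbd9-3, and AT4G38840/SAUR15 had 4.60 and 5.66 in WT and 4.76 and 4.07 in mbd9-3. The genotypes overlapped in each. Neighbouring SAUR genes are close copies, and the authors kept only reads with a single match; how much of these gaps such reads can cover was not measured here.

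Kinases and hypothetical proteins aside, 3 pairs of 2 genes on another list had a summit in all 4 libraries. The disease resistance genes AT5G47250/AT5G47260 had fold enrichments of 10.2 and 9.72 in WT and 8.79 and 8.31 in mbd9-3. Their rank percentiles, 95.5 and 93.5 in WT and 93.7 and 91.8 in mbd9-3, overlapped. The F-box genes AT2G17020/AT2G17030 had 4.05 and 7.34 in WT and 5.28 and 7.99 in mbd9-3. AT1G44770/AT1G44780, annotated as an elongation and an initiation factor, had 4.09 and 7.20 in WT and 4.39 and 6.06 in mbd9-3. Its region merged over libraries (16909310 to 16909754 on chromosome 1) covered both TSSs. In WT replicate 1 the peak was 85 bp wide, less than the 136 bp between the TSSs.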

How the data were processed

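Per the study's methods, the authors ran Trim Galore on the reads, aligned those to TAIR10 by Bowtie and kept unique matches (the submitters' processing notes name Bowtie2). SAMtools served to discard duplicates and reads of organelles. The peak caller and any Tn5 shift are not given in the sources used here. The deposited narrowPeak lists, 1 per library, give per row a fold enrichment as a ratio, −log10 of the p-value and of the q-value, a score, and the summit offset. Peaks sharing at least 1 bp were merged over libraries. Where the summit was missing (45 to 86 rows a list) the middle was used. Greater depth can yield more peaks, and wider ones. List lengths here did not follow the background measure, as mbd9-3 replicate 1, with the lowest background (1.72), had 45208 peaks. WT replicate 2, with the highest (2.15), had 43962.

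Gene models and sequence were those of TAIR10.1 from RefSeq, a TSS being the outer end of a gene; coordinates are 1-based. Gaps overlapped by any annotated gene were left out. For shares at equal lengths, tandem and convergent gaps were weighted to the head-to-head lengths in bins of 50 bp. Medians of rank and width were not weighted. Pileups were solved from fold, taken as (pileup + 1)/(background + 1), and a Poisson p-value. Values per library were compared by exact two-sided permutation tests, and ranks by limma 3.58.1 in R 4.3.3 with Benjamini-Hochberg adjustment, tested on simulated data. The remaining work was done in Python 3.11.15 with scipy 1.17.1, pandas 2.3.3 and numpy 2.4.6, and plots with matplotlib 3.10.9. Wilson intervals cover counting error only. Members and lists were chosen with earlier results of these data known. Named pairs were the 5 strongest, the 3 shortest with a summit in all 4 libraries, the 3 longest without any summit, 2 per genotype called on one side, all with a study gene and up to 6 with both genes on a list. Alternatives were other thresholds, windows, library minimums, overlaps, gene filters, rank measures, leaving out libraries in turn and a replicate block.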

Additional observations from a re-analysis of the deposited data

How the results depend on the processing

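The share of open pairs, 61.2%, was 43.2% at −log10 q of at least 5, 73.0% with 50 bp of both genes added, 65.7%, 57.0% and 50.98% with regions called in at least 1, 3 and 4 libraries, 53.9% when summits of at least 2 libraries had to lie in the gap, and 55.2% to 58.9% without any 1 library. The difference to tandem gaps, 25.5 points, was 23.2 at the stricter q-value, 29.2 with the wider window, 3.60 on the 2-TSS count, and 24.2 to 25.2 without any 1 library. Pairs called in both WT libraries only were 97 to 157, and in both mbd9-3 libraries only 44 to 78, without any 1 library, and the latter were 8 at the stricter q-value. GGCCCA differed between open and closed pairs by 38.4 points, and by 29.4 when only the 100 bp next to each TSS were searched.

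Calls by limma among these regions were 0 under every alternative except one. Regions called in at least 2 libraries, with absent libraries set to the lowest rank, gave 20 calls of 1582 (1.26%), against 3.95% of all 35093 regions, all 20 of them called in 1 genotype only, 19 lower in mbd9-3; with absent libraries at the average of their tied ranks, added after that result was seen, there were 0. With a replicate block limma made 0 calls, and 60 of 1264 regions (4.75%) had an unadjusted p under 0.05 against 48, beside 6.77% of all regions; same-numbered libraries deviated together with a correlation of 0.109, and 2 numbers do not show a pairing. The share difference between genotypes ranged from -7.03 to -0.662 points without any 1 library. The rank difference between genotypes changed sign, to 0.00175 points, without mbd9-3 replicate 2. Over all alternative values counted, 68 were labelled as the same, 23 as moved, and 1, the limma exception above, crossed the threshold. The count left out the rank and width differences between genotypes. For differences tested between libraries, the same meant only that the sign was kept, whatever the change in size. A closed gap lacked a summit of a region called in at least 2 libraries, at the depth of these libraries. It could still hold a summit of a region called in 1 library, or adjoin a summit inside a gene. With summits up to 50 bp inside both genes counted, 1708 of 2340 pairs were open, against 1432.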
